A study of Mus musculus with 2 samples.

Results

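The genes described here serve the major histocompatibility complex (MHC) class I pathway, and 10 were chosen by name: the heavy chains H2-K1 and H2-D1, their light chain B2m, the peptide transporter subunits Tap1 and Tap2, the loading factor Tapbp, the immunoproteasome subunits Psmb8, Psmb9 and Psmb10, and the transcriptional activator Nlrc5. They were chosen for their roles and not by a threshold on their values, though with earlier results of these data known. Of 30142 genes with a transcript cluster (the array's unit of measurement) that lists their symbol alone, 9 were members. The tenth, Nlrc5, lay on a transcript cluster that also lists the microRNA Mir7072, so its values are given as those of a shared row and stand outside the counts. None of the 9 had a second such transcript cluster.

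RNA came from cultured adipose-derived stromal cells, the fibroblast-like progenitors that grow out of fat tissue, taken from inguinal fat pads of mice of the C57BL/6J background, 6 to 10 weeks old. One group was wild type and the other carried a global Wisp1 knockout, made per the labels by placing flox sites around exons 1 to 5 of the gene on chromosome 15 and mating with a mouse named only as Cre-neo. Both cultures were grown in DMEM with 15% fetal bovine serum and no further agent is named, and how many animals gave each culture is not given in the sources used here. Each group had 1 sample on 1 array, which leaves no replicate spread to judge a difference by, and no test was made. The log2 level of Wisp1 itself was 7.79 on the wild-type array and 5.40 on the knockout array, 5.25-fold lower. The stromal markers Pdgfrb (10.38 and 10.49), Thy1 (10.34 and 10.43) and Col1a1 (11.40 and 11.90) were bright on both arrays, whereas Nt5e, also used to mark such cells, was dim (3.27 and 3.28).

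MHC class I molecules show peptides from the inside of the cell to cytotoxic T cells and are read by natural killer cells. Proteasomes cut cytosolic proteins, the TAP transporter carries the peptides into the endoplasmic reticulum, and tapasin (Tapbp) holds the transporter next to an empty heavy chain paired with beta-2 microglobulin until a peptide binds. Nearly all nucleated cells, fibroblasts included, express this pathway at a basal level, and interferons raise it, in part through NLRC5.

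The promoters of H2-K1, H2-D1 and B2m are shown because the heavy and light chains of one molecule are encoded apart, on chromosomes 17 and 2, and their promoters are known to share regulatory elements. The lines give the 200 bases before the start site, 5′ to 3′ on the gene's strand, from RefSeq on GRCm38.p6. H2-K1 is at chr17:34000348-34000547 on the minus strand (the more upstream of its 2 listed starts), H2-D1 at chr17:35262894-35263093 on the plus strand and B2m at chr2:122147487-122147686 on the plus strand. Capitals mark GGATTCC (core letters of the kappa B element of class I genes), TTTCNNTT (core letters of the interferon-stimulated response element, on the opposite strand in B2m), and TGACG followed within 30 bases by ATTGG (the core letters of the X2 and Y boxes, to which NLRC5 is recruited through DNA-binding partners).
H2-K1: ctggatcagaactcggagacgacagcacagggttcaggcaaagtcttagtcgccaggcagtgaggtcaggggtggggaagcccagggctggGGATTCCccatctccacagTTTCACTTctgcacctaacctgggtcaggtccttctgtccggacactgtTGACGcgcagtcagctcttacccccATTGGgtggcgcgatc
H2-D1: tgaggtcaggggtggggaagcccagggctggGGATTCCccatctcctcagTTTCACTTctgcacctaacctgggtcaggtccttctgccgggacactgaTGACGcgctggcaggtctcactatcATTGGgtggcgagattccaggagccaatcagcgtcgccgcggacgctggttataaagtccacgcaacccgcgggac
B2m: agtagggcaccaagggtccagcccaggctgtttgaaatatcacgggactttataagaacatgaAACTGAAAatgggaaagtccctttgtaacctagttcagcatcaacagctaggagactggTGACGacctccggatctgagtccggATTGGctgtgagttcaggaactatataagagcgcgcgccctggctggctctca

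These motifs were searched on both strands of 300-base windows (250 before and 50 after the start), which RefSeq gave for 8 of the members, Tap2 and Nlrc5 being the others. TGACG with ATTGG was found in the windows of H2-K1, H2-D1 and B2m, each time with 20 bases between the parts, and in 0.913% of all 32851 windows. GGATTCC was found in H2-K1 and H2-D1 and in 3.79% of all windows. TTTCNNTT was found in H2-K1, H2-D1 and B2m and in 23.9% of all windows, so by itself it is common. The interferon-gamma-type element TTCNNNGAA, which reads the same on both strands, was found in Psmb8 among the members and in 8.30% of all windows. The motifs do not overlap one another in these windows. The letters were chosen with the sequences in view, and a match is a description of the sequence only. Over the 139 positions that align, the printed stretches of H2-K1 and H2-D1 are identical at 127, or 91.4%.

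Tap1 and Psmb9 have a promoter in common. Their start sites face away from each other with 225 bases between them, at chr17:34187331-34187555 (GRCm38.p6), shown on the strand of Tap1. Their windows share 275 bases. None of the motifs above was found in either window, which says only that those letters are not there.
Tap1 and Psmb9: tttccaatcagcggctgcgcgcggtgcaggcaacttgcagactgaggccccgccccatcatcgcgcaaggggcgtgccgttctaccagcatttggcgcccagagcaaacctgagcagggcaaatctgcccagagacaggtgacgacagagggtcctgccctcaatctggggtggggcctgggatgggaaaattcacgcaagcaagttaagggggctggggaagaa

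The members were slightly higher in the knockout array or equal, and none was lower. The heavy chain genes had the largest differences, at 0.30 and 0.26 on the log2 scale, and the transporter, loading and light chain genes differed by 0.06 to 0.11. Of the 9 members 8 were higher, 1 was identical on both arrays and none lower. Among all named genes 47.0% were higher, and among the 15072 named genes whose mean over both arrays reached the median of named genes (4.65), as did all 9 members, 56.9% were higher. The last share was 48.4% under quantile normalization of both arrays and 63.5% after centring on the array medians. The median difference of the members was 0.10, beside 0 for all named genes and 0.03 for the 15072. Lower values were found for 39.9% of the 15072. No member was 25% higher, a log2 difference of 0.32, as 2.72% of all named genes and 3.89% of the 15072 were. At 10% higher, a step chosen after the values were seen, the members numbered 3 (H2-K1, H2-D1 and Psmb8), beside 21.4% of the 15072.

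**Figure D1:**
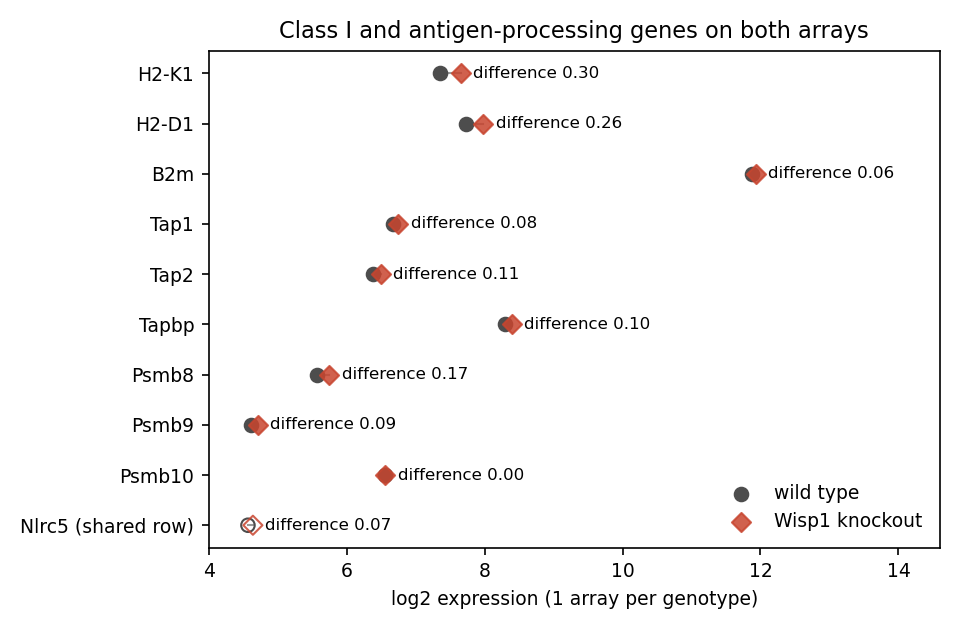
Log2 expression (horizontal axis) of each member on the wild-type array (grey circles) and the Wisp1 knockout array (red diamonds), with 1 array per genotype and therefore no error bars. Open symbols mark Nlrc5, whose row is shared with a microRNA. The pairs of H2-K1 and H2-D1 are the farthest apart (0.30 and 0.26), and the symbols of Psmb10 coincide.

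H2-K1, a classical heavy chain that binds peptides for CD8 T cells, had a log2 level of 7.35 on the wild-type array and of 7.65 on the knockout array. The knockout value was 0.30 higher, or 1.23-fold, and 4.52% of the 15072 genes at or above the median level had a higher difference. H2-D1, the other classical heavy chain of this mouse strain, went from 7.72 in wild type to 7.98 in the knockout. That is a difference of 0.26, or 1.20-fold, and 6.68% of the same genes had a higher one. Among genes whose mean level lay within 0.25 of their own, 4.85% of 1403 exceeded H2-K1 and 6.88% of 1133 exceeded H2-D1. The heavy chain genes are close copies of each other and of the H2-Q genes, and the row of H2-D1 carries 2 Entrez gene IDs, so these are uncertain as separate measurements. Both differences lay inside the central 95% of the 15072 genes, which ran from -0.33 to 0.37.

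B2m encodes beta-2 microglobulin, without which most class I heavy chains do not reach the surface, and it was bright on both arrays. Its 2 values were 11.88 (wild type) and 11.93 (knockout), a difference of 0.06, or 1.04-fold. It was 0.02 under quantile normalization. Of the 122 genes within 0.25 of its level 65.6% had a higher difference. The light chain differed less than the heavy chains on these arrays, by 0.06 against 0.30 and 0.26.

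Tap1 and Tap2 form the transporter that moves peptides into the endoplasmic reticulum. Tap1 had the values 6.67 (wild type) and 6.75 (knockout), a difference of 0.08, and Tap2 at 6.39 and 6.50, a difference of 0.11. Tapbp, the tapasin gene, was at 8.29 and 8.39, a difference of 0.10. Between 27.5% and 36.2% of the 15072 genes had a higher difference than these members, so each lay in the broad middle of the array. Under quantile normalization the differences were 0.03 for Tap1, 0.07 for Tap2 and 0.07 for Tapbp.

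The immunoproteasome genes encode the catalytic subunits that replace the constitutive ones in cells exposed to interferon. Psmb8 (LMP7) went from 5.57 in wild type to 5.75 in the knockout, a difference of 0.17 that 14.7% of the 15072 genes exceeded. Psmb9 (LMP2), which stands just above the median level, went from 4.62 to 4.71, a difference of 0.09. For Tap1, on the other side of the shared promoter, the difference was 0.08 on the deposited values, but 0.03 against 0.09 for Psmb9 under quantile normalization and 0.04 against 0.09 with loess centring. Psmb10 (MECL1) was at 6.56 on both arrays to every deposited digit, as were 3.12% of the 15072 genes. With quantile normalization the difference of Psmb10 was -0.05, with loess centring -0.04 and with median centring 0.02.

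Nlrc5, the class I transactivator, had only the row it shares with Mir7072. That row had the values 4.57 (wild type) and 4.64 (knockout), a difference of 0.07, and its mean lay just below the median level of named genes.

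**Figure D2:**
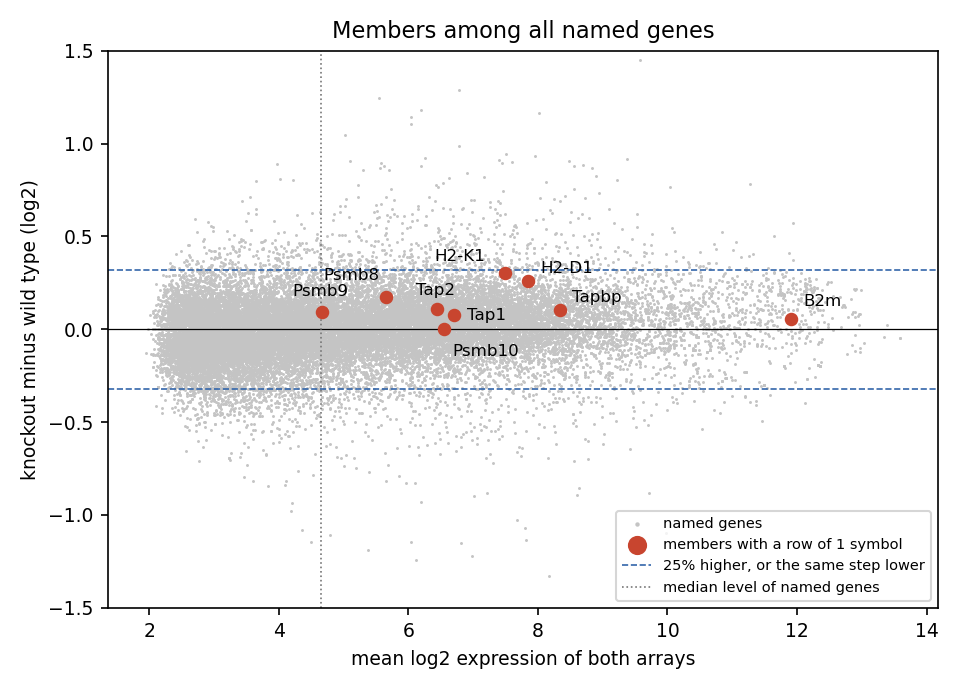
Knockout minus wild-type difference on the log2 scale (vertical axis) against the mean log2 expression of both arrays (horizontal axis) for all 30142 named genes (grey) and the 9 members (red). Dashed lines mark the log2 difference of a 25% higher value in both directions and the dotted line the median level of named genes, and 6 genes beyond the plotted differences of -1.5 to 1.5 are not drawn. All members lie between 0 and the upper dashed line.

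The constitutive counterparts gave a mixed comparison with the immunoproteasome genes. Psmb6, which Psmb9 replaces, went from 8.12 to 8.25 (0.14), and Psmb7, which Psmb10 replaces, from 8.62 to 8.66 (0.04). Psmb5, which Psmb8 replaces, had only a row shared with the microRNA Mir686, at 8.39 and 8.37, a difference of -0.02. The immunoproteasome subunit had the higher difference in the pair of Psmb8 and Psmb5 and the lower one in the other pairs. Of 15 other genes of the core particle and its assembly, higher values were found for 11 and lower ones for 4 (median 0.07), led by Psma4 (0.23), a ring subunit, and the assembly chaperone gene Psmg2 (0.21). At or above the median level 10 of 14 were higher, beside 56.9% of the 15072 genes. The caps and regulators that feed the core had no common direction: of 21 genes 9 were higher, 11 lower and 1 identical (median -0.0024). Psmd7, a lid subunit, had a difference of 0.25 and Psmf1, a proteasome inhibitor, 0.19. Of the interferon-induced PA28 activator, Psme1 was 0.15 higher, while the row that Psme2 shares with its copies Psme2b and Psme2b-ps went from 8.60 to 8.24, a difference of -0.36.

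The nearest relatives of the heavy chains differed by locus, but the loci also differed in level, and locus and level were not separated. Of genes with a row of their own, 2 of 4 listed H2-Q, 1 of 2 H2-T and 1 of 12 H2-M reached the median level. H2-K2, near H2-K1, differed by 0.07, and the other class I H2 genes lie in the Q, T and M regions and mostly encode nonclassical molecules. Of the 4 listed H2-Q genes with a row of their own 3 were higher and 1, H2-Q10, was identical, with a median of 0.12. H2-Q3, which the list did not hold, went from 5.51 to 5.73 (0.22). H2-Q2 went from 5.47 to 5.61 (0.14) and H2-Q4 from 5.77 to 5.92 (0.15). All 4 rows that H2-Q genes share were higher: H2-Q8 with H2-Q6 from 5.19 to 5.53 (0.33), H2-Q5 with Gm10499 by 0.20, H2-Q7 with H2-Q9 by 0.17 and H2-Q5 with H2-Q7 by 0.16. The listed genes named H2-T differed little. H2-T10 (-0.02) and H2-T24 (0.03) had rows of their own, the row of H2-T22 with H2-T9 differed by -0.05, and the row of H2-T23 (Qa-1, a ligand of inhibitory natural killer receptors) with C920025E04Rik by 0.07. The row of H2-T9 with Gm7030 differed by -0.07. Loci follow gene names here, and H2-Bl, a dim class I gene between H2-T24 and H2-T10, differed by 0.15. H2-T-ps, which the list did not hold, differed by 0.11.

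Among the 12 H2-M genes, 9 had lower and 3 higher values (median -0.09), and 11 of the 12 were below the median level. The exception was H2-M3, which presents formylated peptides such as those of bacteria and mitochondria. It went from 4.86 to 5.27, a difference of 0.41 and the only one past the 25% step among the 26 measured class I and class I-like genes outside the members. H2-M10.1, dim at 3.50 and 3.28, had the lowest (-0.22). Among all named genes 47.0% were higher, beside 56.9% of those at or above the median level, so dim genes were less often higher. The class I-like genes Hfe (0.21), Mr1 (0.11) and Fcgrt (0.11), which serve iron balance, the display of vitamin metabolites and antibody recycling, were higher. Over all 26 genes 14 were higher, 11 lower and 1 identical with a median of 0.02, and over the 8 at or above the median level 7 were higher with a median of 0.13.

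**Figure D3:**
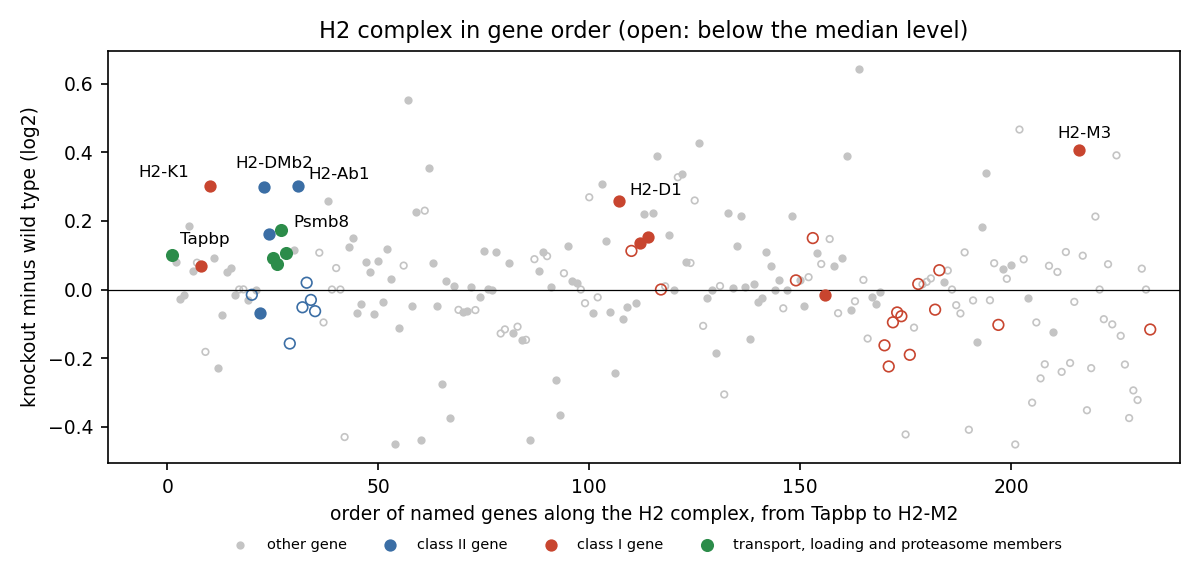
Knockout minus wild-type difference on the log2 scale (vertical axis) for 233 named genes of the H2 complex in their RefSeq order from Tapbp to H2-M2 (horizontal axis, 1 step per gene), with class I genes in red, class II genes in blue, the transport, loading and proteasome members in green and other genes in grey. Colours follow the members and the gene lists, so class I genes that the lists did not hold, such as H2-Q3, are grey. Open points are below the median level. Psmb9, Tap1, Psmb8 and Tap2 form a tight green group between 0.08 and 0.17, and the dim H2-M genes lie mostly below 0.

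In the order of the chromosome, Psmb9, Tap1, Psmb8 and Tap2 are neighbours inside the class II region, and their differences were 0.09, 0.08, 0.17 and 0.11. On one side stands H2-DMb1 (0.16) and on the other H2-Ob (-0.16), which was dim. Of the 112 genes of the complex at or above the median level that were neither members nor class I or II genes of the lists, 62 were higher, or 55.4%, with a median of 0.01, beside 56.9% of the 15072 genes. With the members and those class I and II genes included, 76 of 128 were higher, or 59.4%, with a median of 0.03.

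Other genes that supply, trim and load peptides or fold proteins in the endoplasmic reticulum had small differences. Of 14 such genes 11 were higher, 2 lower and 1, the peptide-trimming protease gene Erap1, identical, with a median of 0.05. All 14 reached the median level, where 56.9% of the 15072 genes were higher. The lectin chaperone genes Calr (0.01) and Canx (0.05) and the disulfide isomerase gene Pdia3 (0.02), which act beside tapasin in the loading complex, were bright and nearly level. Sec61a1, a subunit of the translocation channel, had the highest difference (0.18). Tapbpl, a tapasin relative that edits peptides outside the loading complex, went the other way, from 6.31 to 6.11 (-0.19).

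Upstream regulators were split between small and moderate differences. Among 18 transcription factors of class I and II genes, 12 had higher and 6 lower values (median 0.07). At or above the median level 12 of 17 were higher, beside 56.9% of the 15072 genes. Stat2 went from 8.09 to 8.52 (0.42) and its partner Irf9, with which it acts in the response to type I interferons, from 6.55 to 6.81 (0.25). Irf1, a direct activator of class I, proteasome and Tap genes, differed by 0.04. Rfx5, Rfxap and Rfxank, whose products form the complex that binds the X box and recruits NLRC5, differed by 0.08, 0.10 and 0.07. Of 12 receptors, kinases and inhibitors of interferon signalling 9 were higher, 2 lower and 1 identical, with a median of 0.14. At or above the median level 9 of 11 were higher, beside the same 56.9%. The feedback inhibitor genes Usp18 (6.54 to 6.91, 0.36) and Socs3 (6.39 to 6.71, 0.32) were past the 25% step, as were 3.89% of the 15072 genes. Ifngr2, a chain of the interferon-gamma receptor, was lower (-0.23). The interferon genes themselves were mostly dim, with 2 of 10 higher, 7 lower and 1 identical and a median of -0.04. Ifnl3 differed by 0.20 and Ifna4 by -0.21.

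Interferon-induced GTPases, which restrict intracellular microbes or, as the Mx proteins do, viruses, had a higher median difference than the members. Of 11 genes 9 were higher, 1 lower and 1 identical, with a median of 0.22 beside 0.10 for the members. Iigp1 went from 4.97 to 5.47 (0.50), Mx2 from 4.55 to 4.99 (0.44) and Irgm2 from 6.12 to 6.55 (0.43). Irgm1 was lower, from 8.15 to 7.90 (-0.25). Rows with several symbols stood outside these counts. Gbp6 with Gbp10 differed by 0.54, Ifi47 with Olfr56 by 0.15, and Gbp5 with Gbp2b and Tgtp1 with Tgtp2 by 0.06 each. With such rows kept the median was 0.18.

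**Figure D4:**
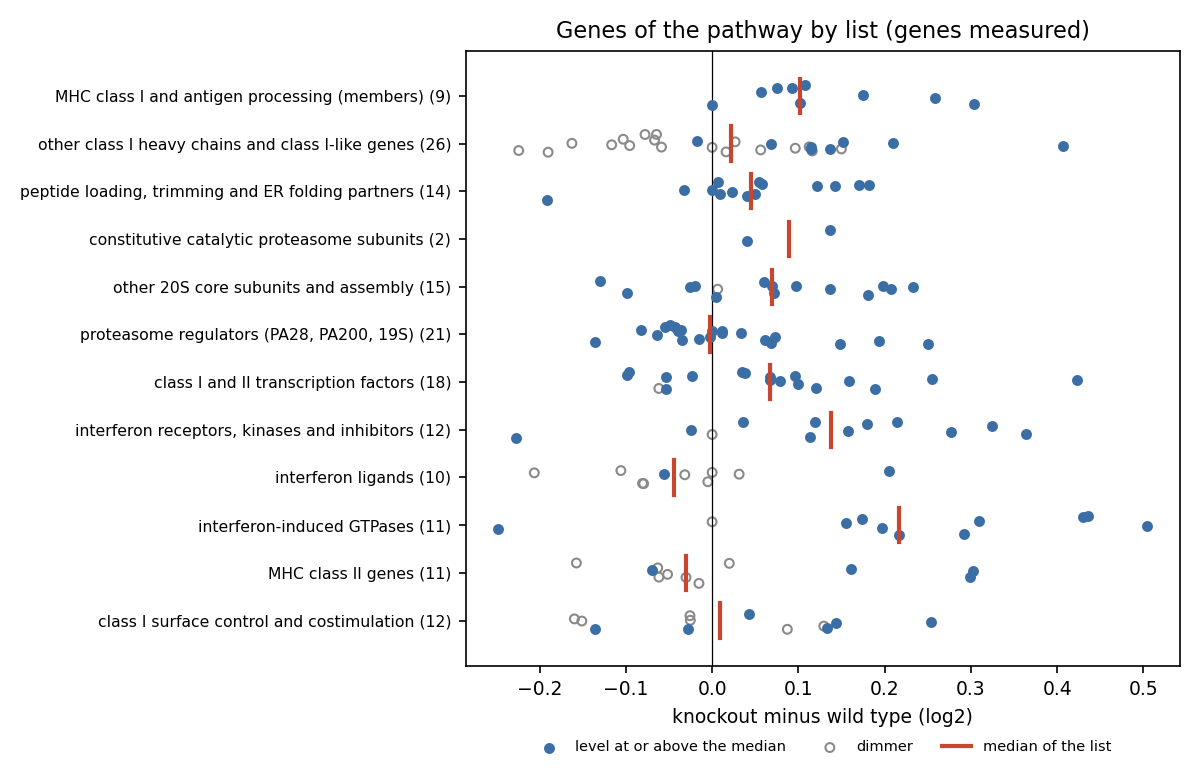
Knockout minus wild-type difference on the log2 scale (horizontal axis) for every measured gene of the members and of 11 other lists of the pathway, with the number measured in parentheses. Filled points are at or above the median level, open points below it, and red bars are list medians. The members run from 0 to 0.30, the GTPases have the highest median (0.22) and the interferon genes the lowest (-0.04).

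MHC class II molecules, which present peptides from outside the cell and mark professional antigen-presenting cells, had 4 of 11 genes higher and the other 7 lower (median -0.03). Most were dim, but H2-Ab1, a class II chain, went from 5.32 to 5.63 (0.30) and H2-DMb2, a peptide-exchange factor, from 5.05 to 5.35 (0.30). H2-Aa, the partner chain of H2-Ab1, was dim on both arrays (3.36 and 3.31), as was the class II activator Ciita (4.16 and 4.10). Over the 4 class II genes at or above the median level the median was 0.23. Surface genes that act beside class I showed no common direction, with 6 of 12 higher and 6 lower and a median of 0.01. Cd47, the signal against uptake by macrophages, was 0.25 higher, Cd86, a costimulator of T cells, was dim and lower (-0.16), and the row shared by H60b, Raet1d and Raet1e, ligands of an activating natural killer receptor, went from 6.94 to 6.60 (-0.34).

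Most macrophage markers were higher in the same array. Of 18 markers 12 were higher, 4 lower and 2 identical, where 47.0% of all named genes were higher. Of the 9 at or above the median level 7 were higher, beside 56.9% of the 15072 genes. The other 2, Cd14 (-0.18) and Coro1a (-0.09), were lower. The summed level of the 18 markers on the linear scale was 480 (wild type) and 681 (knockout), 1.42-fold higher, or 1.24-fold without Lyz2. The summed level of the members was 1.06-fold higher, or 1.12-fold without B2m, which made up 78.4% of it in wild type. The median difference was 0.10 in both lists. Over genes at or above the median level, it was 0.48 for the 9 macrophage markers and 0.10 for the 9 members. Lyz2 (6.14 to 7.43), Fcer1g (5.13 to 6.02) and Cd68 (5.77 to 6.35) had the largest differences among markers at or above the median level, and Laptm5 (0.48), Tyrobp (0.51) and C1qb (0.33) were also past the 25% step. Defining markers of leukocytes and macrophages were dim on both arrays, with Ptprc at 2.86 and 2.86, Adgre1 at 3.33 and 3.25 and Csf1r at 4.61 and 4.62, and no marker can be listed at 0 on this scale. The part of macrophages in the differences of the members was not tested, and in bulk RNA more cells of a type and more RNA per cell cannot be told apart.

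The markers of dendritic cells, lymphocytes, endothelium and adipocytes had no common direction. Markers of dendritic cells (8 genes, 3 higher and 4 lower, with Xcr1 at -0.27 and Ccr7 at -0.19) had summed levels of 156 (wild type) and 146 (knockout). Markers of lymphocytes and natural killer cells (11 genes, 4 higher and 7 lower, with Cd79a at 0.28 and Ms4a1 at -0.25) had sums of 150.5 and 149.6, and none reached the median level. Endothelial markers (7 genes, 4 higher, sums of 151 and 165) included Cdh5 and Emcn, dim genes that were both 0.80 higher. Mature adipocyte markers (6 genes, 2 higher, sums of 168 and 140) included Retn (-1.08) and Adipoq (-0.64). Markers of fibroblast-like stromal cells, the cultured type itself, were mostly higher (10 genes, 8 higher and 2 lower, sums of 12334 and 14060). Of the 9 at or above the median level 7 were higher, beside 56.9% of the 15072 genes. Lum (0.60), Col1a1 (0.50) and Col3a1 (0.43) were among the higher ones, and Eng (-0.21) and Vim (-0.08) were lower. Whether any of these bears on the members was not tested.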

How the data were processed

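Total RNA of 2 samples was labelled with biotin and measured on 1 expression array each. The deposited values are log2 expression per transcript cluster, which the authors made with Partek and RMA per the submitters' processing notes, without a version. That they are log2 was judged from their ranges (1.88 to 13.62 on the wild-type array, 1.74 to 13.65 on the knockout array). RMA brings arrays normalized together to like distributions, so a shift shared by most genes cannot be seen. Which arrays were normalized together is not given in the sources used here, and these columns were not identical in distribution (medians 3.93 in wild type, 3.92 in the knockout). The genome build behind the array is not given in the sources used here.

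The platform's gene annotation gave exactly 1 symbol to 30604 of 65956 transcript clusters, several to 2146 and none to 33206. Symbols were updated through Entrez IDs with RefSeq (GRCm38.p6), and for the 355 genes with several clusters the one with the highest mean was used. Differences are knockout minus wild type, with no further normalization and no test. A value 25% higher, or the same step lower, counted as called. The members and lists were chosen with earlier results of these data known. Named genes are the members, Wisp1, and in each list those past this step at or above the median level and no fewer than 2, those of largest difference, leaving rows with several symbols aside. Others, such as Irf1, Rfx5, Hfe, Calr and the shared rows, were chosen after their values were seen. The alternatives were median centring, quantile normalization, loess centring (span 0.3), the mean over clusters, clusters of several symbols kept, other folds, a filter on dim genes, the mean, and leaving out the H2 members. The code was checked on simulated data whose changes were larger than any member difference and whose noise was small. That check does not bear on how far differences of the size seen here can be trusted. Tools were Python 3.11.15, numpy 2.4.6, pandas 2.3.3, statsmodels 0.14.6, biopython 1.88 and matplotlib 3.10.9.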

Additional observations from a re-analysis of the deposited data

How the results depend on the processing

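No paired analysis was possible because each group had 1 array. A value was taken as moved when it changed by 0.05 or more on the log2 scale, or a count by over 1.5 times. None of the 45 recomputed member differences moved by that much, but the limit is near the size of the smallest: under quantile normalization that of Tap1 was 0.03 in place of 0.08 and that of B2m 0.02 in place of 0.06, and that of Psmb10 took either sign. Not all of the 45 are checks. No member has a second cluster of its own, so the mean over clusters could not move any difference. Keeping clusters of several symbols left all 9 unchanged, so only the renormalized values differed. The median of the members ranged from 0.07 to 0.13 over 8 alternatives, and the count of higher members was 8 or 9. The filter on dim genes, which all 9 pass, and the mean over clusters could not change that median. The count was 9 with median centring, where Psmb10 was slightly higher, and with clusters of several symbols kept, which adds the Nlrc5 row. With a step of 10% in place of 25%, chosen after seeing the data, 3 members were past it in place of 0. Over list genes at or above the median level, the median was 0.1256 for the other class I genes, 0.0742 for interferon ligands (2 genes), 0.2300 for class II genes and 0.0876 for surface control genes, because the dim genes drop out. The median of the proteasome regulators ranged from -0.05 to 0.01 and that of surface control genes from -0.03 to 0.09. That of interferon ligands ranged from -0.04 to 0.07 and that of class II genes from -0.03 to 0.23, so none of these has a settled sign. With 1 array per group, a difference between cultures, animals or arrays and one between genotypes cannot be told apart.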
